A study of Mus musculus with 6 samples.

Results

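The genes examined are 9 mouse genes whose products have been proposed as parts or regulators of the mitochondrial permeability transition pore, in spleen CD8+ T cells exposed to neutrophil extracellular traps (NETs) or left without them. They were taken by symbol, as a list put together with earlier results of these data known, and were Vdac1, Vdac2, Vdac3, Slc25a3, Slc25a4, Slc25a5, Ppif, Ppid and Tspo, 9 of the 15605 genes with values among 22064 listed. All 9 passed the filter on low counts. The cells were CD8+ T cells, the cytotoxic lymphocytes, purified from spleens of BALB/c mice. In the NET group (3 samples) they were cultured for 48 h with NETs at 10 μg/mL, and in the control group (3 samples) for 48 h without NETs. NETs are webs of DNA, histones and granule proteins shed by neutrophils, and those of the study came from neutrophils activated with phorbol 12-myristate 13-acetate. No source used here says whether the cells for sequencing were also stimulated through the T cell receptor, or which samples came from separate mice or cultures. The spread behind the p-values is therefore that among these samples, and it could be technical. In bulk RNA, fewer cells of a type and less RNA per cell cannot be told apart.

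The permeability transition pore is a large channel of the inner mitochondrial membrane that opens under high matrix calcium or oxidative stress. Its opening collapses the membrane potential, lets the matrix swell and can end in release of cytochrome c. Which proteins form it is disputed. The adenine nucleotide carriers and the ATP synthase have both been proposed as the channel itself. Cyclophilin D of the matrix is its best established regulator and the target through which cyclosporin A delays opening. The voltage-dependent anion channels (VDAC) and TSPO of the outer membrane and the phosphate carrier were placed in earlier models of the complex. The study measured pore opening in CD8+ T cells and worked on the Slc25a4 and Vdac1 proteins. It also knocked down Vdac1, Vdac2, Slc25a4, Slc25a5 and Ppid in these cells. Loss of Vdac1 and of Slc25a4 was reported to reverse the fall in membrane potential caused by the NET peptide Cramp. The question here is how the transcripts of all the candidates stood with and without NETs.

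With NETs, the transcripts of both cyclophilins, of the carrier Slc25a4 and of the phosphate carrier Slc25a3 were higher, while the VDAC genes, Slc25a5 and Tspo did not pass the test. Ppif, the cyclophilin D gene, had the largest change of the 9, 1.62-fold, and was the only one of them whose log2 fold change also exceeded 0.58, the size the study required. In the edgeR test at a Benjamini-Hochberg adjusted p below 0.05, 4 of the 9 genes were higher with NETs (44.4%) and 5 were not called. The count was 2 without control sample 2, control sample 3 or NET sample 2, where Slc25a3 and Slc25a4 were not called. Among all 12546 genes tested, 22.3% were higher, 22.3% were lower and 44.6% changed in either direction. The share of candidates that changed in either direction was thus close to that of all genes tested. Of the 9 genes 0 were lower, also 0 at an unadjusted p below 0.05 and 0 with DESeq2 or limma-voom. The median log2 fold change was 0.12 over the 9 genes and -0.01 over all genes tested. For 4 of the 9 genes, the same ones that were called, all NET samples lay above all control samples. Over all genes tested, this held for 27.4%, the opposite for 27.2%, and either of them for 54.7%.

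**Figure D1:**
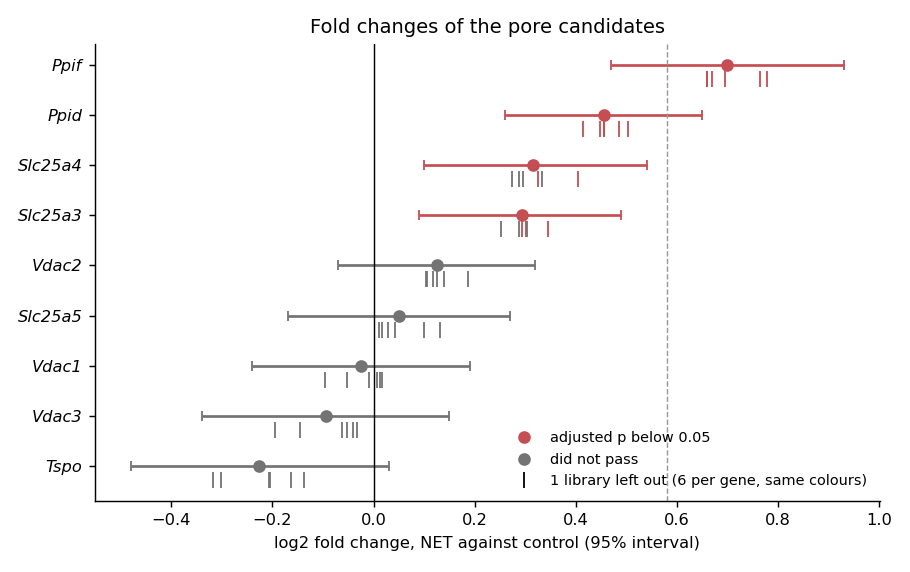
Log2 fold change of each candidate gene, NET against control, with its 95% interval (x axis, log2 scale) for the 9 genes (y axis). Short vertical marks give the fold change with each of the 6 libraries left out in turn, red where the adjusted p is below 0.05 and grey where it is not, and the dashed line is the fold threshold of 0.58. The Ppif and Ppid marks are all red, whereas those of Slc25a3 and Slc25a4 are mixed.

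Both groups came from libraries of similar depth, 18696355 to 19425700 estimated counts, in which the candidates held between 583 and 12436 counts each. The first principal component carried 81.1% of the variance and separated the groups, and the second, with 8.29%, split the libraries numbered 1 of both groups from the remaining 4. Cd8a and Cd8b1, which define these cells, were well expressed, at 1222 ± 85.8 and 529 ± 49.3 CPM in control samples and 818 ± 51.2 and 407 ± 25.2 CPM in NET samples (mean ± SD, n = 3 each, CPM being counts scaled to library size with TMM factors). Of 8 T cell markers 7 were lower and 0 were higher (0 higher at an unadjusted p below 0.05, with DESeq2 or with limma-voom), and their summed level fell from between 3960 and 4240 CPM to between 2700 and 3030 CPM. Of 11 B cell markers 10 were higher, with a summed level of 32.0 to 41.6 CPM in control and 135 to 219 CPM in NET samples, led by Cd22, Cd79a and Cd79b. Plasma cell markers summed to 34.3 to 46.0 CPM in control and 99.8 to 108 CPM in NET samples, with 4 of 5 higher. Most abundant of them was Prdm1, with a mean of 29.97 CPM in control and 55.6 CPM in NET samples. Jchain had means of 5.715 and 28.51 CPM. Dendritic cell markers summed to 18.8 to 20.9 against 36.9 to 41.0 CPM, with 3 of 5 higher and 1 lower. Neutrophil markers summed to 21.0 to 24.2 against 32.8 to 38.0 CPM, with 4 of 6 higher. For macrophages the sums were 45.9 to 70.5 and 70.9 to 78.7 CPM, with 5 of 9 higher and 1 lower. The sums cover every listed marker with values, which were 8 for dendritic cells, 10 for neutrophils and 13 for macrophages. Counts of higher and lower markers cover only those that passed the filter on low counts. Of 4 CD4 T cell markers 1 was higher and 3 were lower, and Pf4 was higher among 3 platelet markers. The single NK cell and erythroid markers tested, Eomes and Alas2, were not called. Eomes stood at 107 ± 12.2 CPM in control and 92.2 ± 13.3 CPM in NET samples. No other NK cell marker passed the filter, so that list rests on this gene alone. None of the markers tested was at 0 in a whole group, and Trac, Vpreb3, Tnfrsf17, Marco, Cd209a, Ly6g, Retnlg, Klra8, Hbb-bt, Hbb-bs and Gp1bb had no values. Whether the CD8+ T cells themselves expressed some of the markers listed for other cells was not tested. The part of other cells in the results on the candidates was not tested either.

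Sequence separates the members of this group that share a family, and the start regions of the genes that moved are shown first. The windows are 300 bases around the annotated transcript start, from RefSeq on GRCm38.p6 (the assembly called mm10), which is of C57BL/6J and not of the BALB/c strain used. Of the 9 genes, Vdac1, Slc25a3, Slc25a4, Slc25a5 and Ppif had windows. Those of the 3 called genes with a window are given with Slc25a5, the close paralog of Slc25a4 that was not called. They lie at chr14:25693920-25694219 on the plus strand (Ppif), chr10:91123918-91124217 on the minus strand (Slc25a3), chr8:46211013-46211312 on the minus strand (Slc25a4) and chrX:36795347-36795646 on the plus strand (Slc25a5). The Ppif window lies inside the gene span given below, so the outer end of that span was not searched. Capitals mark matches, on either strand, to any of 9 short motifs.
Ppif promoter: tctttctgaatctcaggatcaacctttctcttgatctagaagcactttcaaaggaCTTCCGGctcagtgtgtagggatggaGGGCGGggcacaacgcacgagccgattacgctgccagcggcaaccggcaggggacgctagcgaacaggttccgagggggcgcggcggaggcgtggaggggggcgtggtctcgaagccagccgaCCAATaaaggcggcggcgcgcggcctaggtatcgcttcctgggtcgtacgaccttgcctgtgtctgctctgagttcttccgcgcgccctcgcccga
Slc25a3 promoter: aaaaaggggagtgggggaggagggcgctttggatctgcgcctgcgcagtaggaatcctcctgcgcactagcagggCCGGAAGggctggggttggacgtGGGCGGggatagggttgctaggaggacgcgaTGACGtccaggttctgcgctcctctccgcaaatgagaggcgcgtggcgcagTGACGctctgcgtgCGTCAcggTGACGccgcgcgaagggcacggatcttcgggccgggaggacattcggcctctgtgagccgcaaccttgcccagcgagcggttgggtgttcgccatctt
Slc25a4 promoter: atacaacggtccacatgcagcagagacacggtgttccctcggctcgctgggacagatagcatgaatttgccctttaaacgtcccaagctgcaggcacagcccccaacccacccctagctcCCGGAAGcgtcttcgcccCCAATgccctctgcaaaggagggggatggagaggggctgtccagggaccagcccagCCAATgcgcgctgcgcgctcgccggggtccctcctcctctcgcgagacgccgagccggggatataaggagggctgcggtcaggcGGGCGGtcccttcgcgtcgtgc
Slc25a5 promoter: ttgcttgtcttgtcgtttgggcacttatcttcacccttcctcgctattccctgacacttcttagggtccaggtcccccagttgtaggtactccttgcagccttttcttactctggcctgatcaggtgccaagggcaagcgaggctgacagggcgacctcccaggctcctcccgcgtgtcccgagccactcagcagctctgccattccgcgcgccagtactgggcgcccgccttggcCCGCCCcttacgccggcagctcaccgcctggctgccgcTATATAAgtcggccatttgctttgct

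The motifs searched were the ETS core CCGGAAG, the GC box GGGCGG, the CCAAT box CCAAT, the CRE-type motif TGACG, the ATA-type box TATATAA, the TATA box TATAAA, the E-box CACGTG, the ERR-type motif AAGGTCA and the NRF1 site, none of which contains another. The windows of Ppif, Slc25a3 and Slc25a4 each held 1 ETS core, and that of Slc25a5 held 0. Of the pair of Vdac1 windows, 1 held an ETS core. This motif was in 8.86% of all 32851 windows and in 17.1% of the 12853 windows of genes tested. The GC box was in all 4 windows shown (35.7% of all windows, 60.4% of those of tested genes). CCAAT was present 2 times in Slc25a4 and 1 time in Ppif (37.4% and 38.0%), and TGACG 4 times in Slc25a3 (6837 of all windows and 3857 of those of tested genes). TATATAA was in the Slc25a5 window only among the 4 (3.24% and 1.39%), on the transcribed side of the RefSeq start. These are matches of letters, and binding was not measured.

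The symbols Ppif and Ppid need care, since both have been linked to the name cyclophilin D. RefSeq gives CypD as a synonym of Ppif, the matrix cyclophilin, and CYP-40 as a synonym of Ppid, which encodes cyclophilin 40, a partner of the chaperone Hsp90 in the cytosol. The study lists a knockdown of Cypd under the symbol Ppid. The primers it designed for Ppid and for Slc25a4 are shown because both genes have a paralog among the candidates. Vdac2 has paralogs among them too, and its primers matched a Vdac2 transcript exactly, spanned 108 bases and are not shown. The primers listed for Vdac1, and the forward primer for Slc25a5, had no exact match in a GENCODE M21 transcript of the named gene and are not shown. The bases of that Slc25a5 primer do stand in the Slc25a5 window shown above, so the missing match concerns the annotated transcripts only. Capitals mark bases that differ from the best ungapped placement in the paralog, Ppif for Ppid and Slc25a5 for Slc25a4.
Ppid forward: cAgtgAAgAtgtCCcacGca
Ppid reverse: tccCCtgAcatCCtggGtATt
Slc25a4 forward: gccagcaaAcaGatcaGTgc
Slc25a4 reverse: AgtggggaagtaCcGgatCa

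Both Ppid primers matched an annotated Ppid transcript exactly (GENCODE M21 on GRCm38). They differed from Ppif at 7 of 20 and 8 of 21 bases. These are the fewest mismatches at any position of a Ppif transcript, which need not be the corresponding site. The forward primer also matched a transcript of Lamp3, and the pair spanned 1163 bases of the Ppid transcript, against 132 bases for the Slc25a4 pair. Both Slc25a4 primers matched Slc25a4 exactly and differed from Slc25a5 at 4 of 20 bases each. The deposited tables count Ppif and Ppid as separate genes, so both are given here under their own symbols.

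Ppif (NCBI gene 105675, chr14:25693574-25700468) encodes cyclophilin D, the peptidyl-prolyl isomerase that sensitises the pore to calcium. Its level was 37.0, 31.6 and 31.4 CPM in control samples 1 to 3 and 57.4, 55.7 and 49.4 CPM in NET samples 1 to 3. The lowest NET sample stood above the highest control sample, and the groups did not overlap. The means were 33.4 ± 3.18 and 54.2 ± 4.18 CPM (SD, n = 3 each). The log2 fold change was 0.70 ± 0.10 (SE), with a 95% interval of 0.47 to 0.93 and an edgeR adjusted p of 0.00045. Ppif had the lowest level per transcript length of the 9 genes, 22.01 ± 2.49 FPKM in control and 36.3 ± 2.79 FPKM in NET samples, which still placed it at the percentile 80.4 of all genes with values. Ppif overlaps an antisense gene, Ppifos, and whether counting used the strand was not given in the sources used here, so reads from stretches that the pair shares could count for either gene. Of the 100-base windows of its transcripts, 0.2% were shared with Ppifos.

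Ppid (NCBI gene 67738, chr3:79591337-79603810) was 149.7, 168.9 and 155.6 CPM in control samples and 220.6, 212.4 and 217.4 CPM in NET samples. All NET values lay above all control values, and the NET samples differed from each other by less than the control samples did. The means were 158 ± 9.85 and 217 ± 4.11 CPM (SD, n = 3 each), a 1.37-fold difference. The log2 fold change was 0.46 ± 0.09, with an interval of 0.26 to 0.65 and an edgeR adjusted p of 0.00182. Per length, Ppid was above Ppif in every sample, at 80.0 ± 4.20 FPKM without and 112 ± 3.11 FPKM with NETs. Ppif per 100 FPKM of Ppid was 27.6 ± 4.09 in control and 32.4 ± 2.41 in NET samples, and these ranges overlapped. The log2 ratio of Ppif to Ppid was 0.24 higher with NETs (exact permutation test, two-sided, p = 0.2, Benjamini-Hochberg adjusted p = 0.3 over 5 ratios, n = 3 per group). It was 0.35 without control sample 1 and 0.15 without control sample 2. With 3 against 3 samples this exact test cannot go below p = 0.1, and the same holds for the other paralog ratios. Ppid overlaps Etfdh on the other strand and shares 8.2% of its 100-base windows with 4 other annotated genes, so its count carries that uncertainty.

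**Figure D2:**
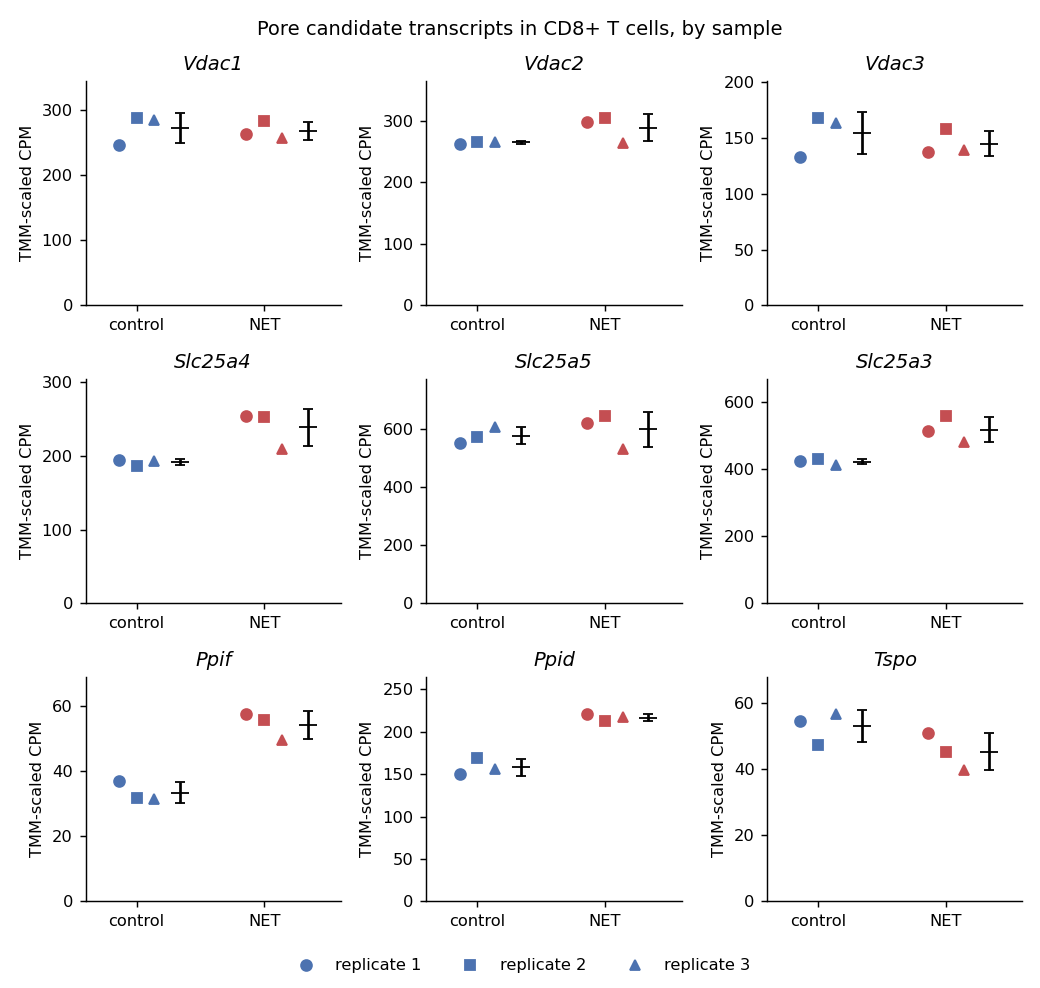
Level of each of the 9 candidate genes in TMM-scaled CPM (y axes, from 0) in the 3 control and 3 NET samples (x axes). Symbols are single samples, with shapes for replicates 1 to 3, and black bars are the mean and SD of a group. Only for Slc25a4, Slc25a3, Ppif and Ppid do all NET samples lie above all control samples.

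Slc25a4 and Slc25a5 encode the adenine nucleotide carriers Ant1 and Ant2, which exchange ADP and ATP across the inner membrane. Ant1 is the form typical of heart and skeletal muscle, and Ant2 that of proliferating cells. Slc25a4 (NCBI gene 11739, chr8:46207168-46211062) was 194.6, 186.7 and 192.8 CPM in control samples and 253.2, 252.9 and 208.8 CPM in NET samples. NET sample 3 stood well below the other NET samples, yet above every control sample. The means were 191 ± 4.18 and 238 ± 25.6 CPM (SD, n = 3 each), a log2 fold change of 0.32 ± 0.10 with an interval of 0.10 to 0.54 and an edgeR adjusted p of 0.0249. This call was lost without NET sample 1 (0.27, adjusted p = 0.0701), NET sample 2 (0.29, 0.0865), control sample 2 (0.30, 0.0996) or control sample 3 (0.33, 0.0687). It was also lost without both libraries numbered 1 (0.28, adjusted p = 0.0562).

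Slc25a5 (NCBI gene 11740, chrX:36795597-36798808) was the most abundant candidate per length, at 457 ± 15.7 FPKM without and 480 ± 45.0 FPKM with NETs. Its values were 551.5, 572.6 and 606.4 CPM in control samples and 618.8, 642.6 and 531.3 CPM in NET samples. NET sample 3 was the lowest of all 6 samples, the others of its group were the highest, and the groups overlapped. The log2 fold change was 0.05 ± 0.10, with an interval of -0.17 to 0.27 and an edgeR adjusted p of 0.705. Slc25a5 shares 12.0% of its 100-base windows with 4 other annotated genes, whereas Slc25a4 shares 0%.

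Both carriers had their lowest NET value in sample 3, and the balance between them varied less over the NET samples than either level did. Slc25a4 made up 25.5%, 24.0% and 23.6% of the summed Slc25a4 and Slc25a5 FPKM in control samples and 28.4%, 27.7% and 27.6% in NET samples. Every NET sample had a larger Slc25a4 share than every control sample. The log2 ratio of Slc25a4 to Slc25a5 rose in the mean from -1.63 ± 0.08 to -1.37 ± 0.03 (SD, n = 3 each), a difference of 0.26. An exact permutation test gave p = 0.1, the smallest it allows, and an adjusted p of 0.3 over the 5 ratios, so the difference did not pass. The summed carrier level was 605 ± 14.9 FPKM in control and 666 ± 64.2 FPKM in NET samples, with overlapping values. Ppif per 100 FPKM of the carriers was 4.16, 3.48 and 3.29 in control samples and 5.53, 5.23 and 5.61 in NET samples. NET sample 3 had the highest of these ratios, and the groups did not overlap.

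**Figure D3:**
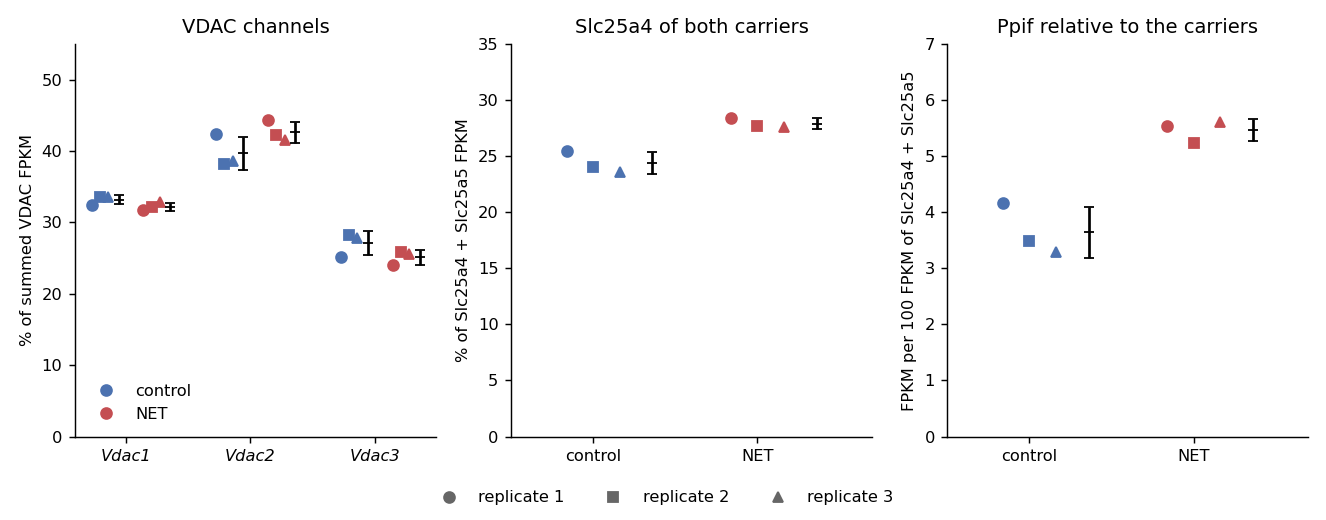
Balance within families in each of the 3 control and 3 NET samples, from FPKM. The left panel gives each VDAC gene as a percent of the VDAC sum, the middle panel Slc25a4 as a percent of Slc25a4 and Slc25a5, and the right panel Ppif per 100 FPKM of both carriers. Symbols are single samples and black bars the mean and SD, and the groups are apart in the middle and right panels and overlap for every VDAC gene.

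Slc25a3 (NCBI gene 18674, chr10:91116574-91124046) encodes the phosphate carrier, which brings phosphate into the matrix for ATP synthesis. Its level was 425.3, 431.0 and 414.2 CPM in control samples and 514.8, 558.3 and 483.0 CPM in NET samples. The control samples lay close together, and every NET sample was above them. The means were 424 ± 8.54 and 519 ± 37.8 CPM (SD, n = 3 each), a log2 fold change of 0.29 ± 0.09 with an interval of 0.09 to 0.49 and an edgeR adjusted p of 0.023. The call was lost without NET sample 2 (0.25, adjusted p = 0.0873), control sample 2 (0.30, 0.0768) or control sample 3 (0.29, 0.0819), and it held without both libraries numbered 1 (0.30, 0.0315). Per 100 FPKM of the adenine nucleotide carriers, Slc25a3 stood at 49.9, 49.9 and 45.4 in control samples and 51.7, 54.6 and 57.3 in NET samples. Groups did not overlap for this ratio either.

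The VDAC genes encode the pores through which metabolites and calcium cross the outer membrane, and VDAC1 and VDAC2 also bind hexokinases and proteins of the BCL2 family. Vdac1 (NCBI gene 22333, chr11:52360851-52389397) was 246.6, 287.4 and 284.3 CPM in control samples and 263.3, 283.6 and 257.4 CPM in NET samples. All 3 NET values lay within the range of the control values. The log2 fold change was -0.02 ± 0.10, with an interval of -0.24 to 0.19 and an edgeR adjusted p of 0.855, so a change of the size seen for Ppif lies outside the interval. Its sign turned to positive under upper quartile scaling (0.02) and without NET sample 3 (0.01), control sample 2 (0.01) or control sample 3 (0.02).

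Vdac2 (NCBI gene 22334, chr14:21831561-21845879) was 262.6, 266.0 and 265.8 CPM in control samples and 298.3, 303.8 and 264.4 CPM in NET samples. NET samples 1 and 2 stood above the tightly grouped control samples, and NET sample 3 stood among them. The log2 fold change was 0.12 ± 0.09, with an interval of -0.07 to 0.32 and an edgeR adjusted p of 0.278. Vdac2 overlaps Comtd1 on the other strand. For Vdac3 (NCBI gene 22335, chr8:22577075-22593813) the values were 132.5, 167.4 and 162.9 CPM in control samples and 137.3, 157.8 and 138.9 CPM in NET samples. In each group the sample numbered 2 was the highest and that numbered 1 the lowest, and the groups overlapped. The log2 fold change was -0.09 ± 0.11, with an interval of -0.34 to 0.15 and an edgeR adjusted p of 0.525. Vdac3 shares 34.4% of its 100-base windows with the pseudogene Vdac3-ps1 and with Gm7591, the highest share of the 9 genes, so its count is the least certain of them.

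Taken as a pool, the VDAC genes summed to 409 ± 20.1 FPKM in control and 420 ± 22.8 FPKM in NET samples (SD, n = 3 each), with overlap. Vdac2 held the largest share of the pool in every sample, 39.7% ± 2.33 without and 42.6% ± 1.44 with NETs. Vdac1 held 33.2% ± 0.68 and 32.2% ± 0.56, and Vdac3 27.1% ± 1.66 and 25.1% ± 1.01. The log2 ratios differed between the groups by -0.14 for Vdac1 to Vdac2 (exact permutation p = 0.2), by 0.07 for Vdac1 to Vdac3 (exact p = 0.3) and by 0.21 for Vdac2 to Vdac3 (exact p = 0.3). All had an adjusted p of 0.3 over the 5 ratios and overlapping values.

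Tspo (NCBI gene 12257, chr15:83563573-83574203) encodes the translocator protein of the outer membrane, known earlier as the peripheral benzodiazepine receptor, which binds cholesterol and is abundant in myeloid and steroid-producing cells. Its level was 54.8, 47.5 and 56.7 CPM in control samples and 51.1, 45.2 and 39.8 CPM in NET samples. The lowest values were in NET samples 2 and 3, and NET sample 1 lay within the control range. The means were 53.0 ± 4.85 and 45.3 ± 5.66 CPM (SD, n = 3 each), a log2 fold change of -0.23 ± 0.12 with an interval of -0.48 to 0.03 and an edgeR adjusted p of 0.138. Tspo was the candidate with the most negative fold change, in the same samples in which the summed macrophage, dendritic cell and neutrophil markers were higher. The macrophage markers did not all move together, with 5 of 9 higher and 1 lower. The most abundant, Lyz2, was 35.6 ± 11.2 CPM without and 39.4 ± 2.62 CPM with NETs (edgeR adjusted p = 0.552). Cd68 rose from 9.38 ± 0.28 to 18.7 ± 0.26 CPM, and Mertk fell from 1.19 ± 0.27 to 0.38 ± 0.31 CPM (edgeR adjusted p = 0.0162). The part of myeloid cells in the Tspo level was not tested. Tspo overlaps Mcat on the other strand.

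Ranked by FPKM, which sets levels of different genes side by side per length, the order over all 6 samples was Slc25a5 (468.7), Slc25a3 (327.5), Vdac2 (170.8), Slc25a4 (166.7), Vdac1 (135.7), Vdac3 (108.3), Ppid (96.0), Tspo (60.6) and Ppif (29.1). The median gene with values had 6.34 FPKM. The neighbours Vdac2 and Slc25a4 stood apart in control samples only. Control samples held 160.9 to 163.9 FPKM of Vdac2 against 142.9 to 152.7 of Slc25a4, and NET samples 164.7 to 186.7 against 163.5 to 198.9. The ranges overlapped with NETs, where Vdac2 was still the higher in NET sample 3. Vdac3 and Ppid were at 97.3 to 119.9 against 77.2 to 84.8 FPKM in control and 101.0 to 114.1 against 108.9 to 115.1 FPKM in NET samples, again overlapping only with NETs and with Vdac3 still the higher in NET sample 2. These orders between genes were not tested. The other neighbours kept their order in both groups without overlap. Within the NET group, sample 3 had the lowest CPM for 7 of the 9 genes, the exceptions being Vdac3 and Ppid.

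Other genes tied to the pore or to its triggers were counted in lists, beside 22.3% higher and 22.3% lower of all genes tested. Of 11 other partners and regulators 4 were higher and 0 lower (1 lower at an unadjusted p below 0.05, 0 with DESeq2 and 0 with limma-voom). Hk2, the hexokinase that docks on VDAC at the outer membrane, had the largest change, from 131 ± 15.4 to 368 ± 46.9 CPM (log2 fold change 1.48 ± 0.12, edgeR adjusted p = 8.35e-06). Hk1, the other hexokinase with a mitochondrial docking end, was 194 ± 8.35 and 239 ± 17.9 CPM (0.30 ± 0.09, 0.0215). C1qbp, a matrix protein, rose by 0.44 ± 0.12 and Afg3l2, a subunit of the inner membrane m-AAA protease, by 0.26 ± 0.09 on the log2 scale. Bax (0.38 ± 0.21, edgeR adjusted p = 0.168) and Bak1 (-0.03 ± 0.09, 0.796) did not pass. The study, which used DESeq2, reported Bax as significantly raised by NETs. The carrier Slc25a31 and Tspo2 had no values. The median of the list was 0.26.

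Mitochondrial calcium transport, which loads the matrix with the ion that triggers the pore, held changes in both directions. Of 10 genes 1 was higher and 3 were lower, with a median log2 fold change of 0.01. Mcu, the pore-forming subunit of the calcium uniporter, rose from 20.2 ± 1.53 to 56.7 ± 3.23 CPM (1.49 ± 0.10, edgeR adjusted p = 2.01e-06). Micu2, a gatekeeper subunit of the uniporter, fell from 98.0 ± 10.9 to 65.3 ± 3.11 CPM (-0.59 ± 0.10, 0.00111). Mcub, the paralog that dampens uniporter current, fell from 8.33 ± 0.47 to 6.27 ± 0.24 CPM (-0.41 ± 0.13, 0.0277), and Letmd1 fell by 0.26 on the log2 scale. DESeq2 called 2 of these 3 lower. The regulator Smdt1 (log2 fold change 0.24 ± 0.28) and the exporter Slc8b1 (-0.18 ± 0.12) did not pass.

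For the ATP synthase, the other proposed channel, 3 of 18 genes were higher and 0 lower (1 lower at an unadjusted p below 0.05, 0 with DESeq2 and 0 with limma-voom), with a median of 0.05. The catalytic subunit gene Atp5b was 1223 ± 33.1 and 1546 ± 84.5 CPM (0.34 ± 0.09, edgeR adjusted p = 0.0107), and Atp5g1, a gene of the c-ring, and Atp5md rose by 0.39 ± 0.11 and 0.38 ± 0.11 on the log2 scale. Outer membrane import genes, whose products bring VDAC and other precursors into mitochondria, had 4 of 13 higher and 0 lower (0 at an unadjusted p below 0.05, with DESeq2 and with limma-voom), with a median of 0.22. They were the channel gene Tomm40, from 67.9 ± 9.63 to 110 ± 8.82 CPM (0.69 ± 0.12, 0.000858), Mtx2 (0.59 ± 0.11), and the receptor genes Tomm70a (0.30 ± 0.09) and Tomm20 (0.30 ± 0.11).

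The other cyclophilins mostly did not follow Ppif and Ppid. Of 14 tested, 1 was higher and 4 were lower, with a median of -0.07. Ppic, an isomerase of the secretory pathway, fell from 19.9 ± 0.46 to 14.2 ± 0.54 CPM (-0.49 ± 0.10, edgeR adjusted p = 0.0035), and Ppil2 (-0.36 ± 0.08), Nktr (-0.32 ± 0.11) and Ppwd1 (-0.28 ± 0.09) were also lower. Ppil1, a cyclophilin of the spliceosome, was higher (0.38 ± 0.12, 0.0229). Of 35 other members of the carrier family to which Slc25a3, Slc25a4 and Slc25a5 belong, 9 were higher and 6 lower (median 0.12). They ranged from Slc25a45 at -1.46 ± 0.12, with Slc25a27 at -1.10 ± 0.13, to the pyrimidine nucleotide carrier Slc25a33, which rose from 8.27 ± 0.60 to 22.5 ± 2.34 CPM (1.44 ± 0.13, 1.27e-05).

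Among 9 genes linked to TSPO, its ligand and sterol import, 2 were higher and 1 lower (median 0.10). Cyp11a1, the enzyme that cleaves the cholesterol side chain in mitochondria to give pregnenolone, rose from 6.78 ± 1.46 to 20.8 ± 5.65 CPM (1.61 ± 0.22, edgeR adjusted p = 0.00022). Fdxr, the reductase that feeds electrons to it, fell from 24.8 ± 3.10 to 15.8 ± 1.73 CPM (-0.65 ± 0.13, 0.00263), and Atad3a, an inner membrane ATPase, rose by 0.47 ± 0.14 on the log2 scale. The TSPO ligand gene Dbi (0.24 ± 0.23) and the sterol carrier gene Star (-0.01 ± 0.13) did not pass. Of 6 genes for proteins released from the inter-membrane space in apoptosis or holding cristae, 2 were higher and 0 lower (1 lower at an unadjusted p below 0.05, 0 with DESeq2 and 0 with limma-voom). Cycs, the gene of cytochrome c, was 206 ± 1.42 and 294 ± 18.7 CPM (0.51 ± 0.09, 0.000942) and the protease gene Htra2 29.8 ± 7.65 and 46.1 ± 5.77 CPM (0.63 ± 0.17, 0.0125). Diablo was 34.9 ± 2.4 and 29.4 ± 1.34 CPM (-0.25 ± 0.10, 0.0594).

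**Figure D4:**
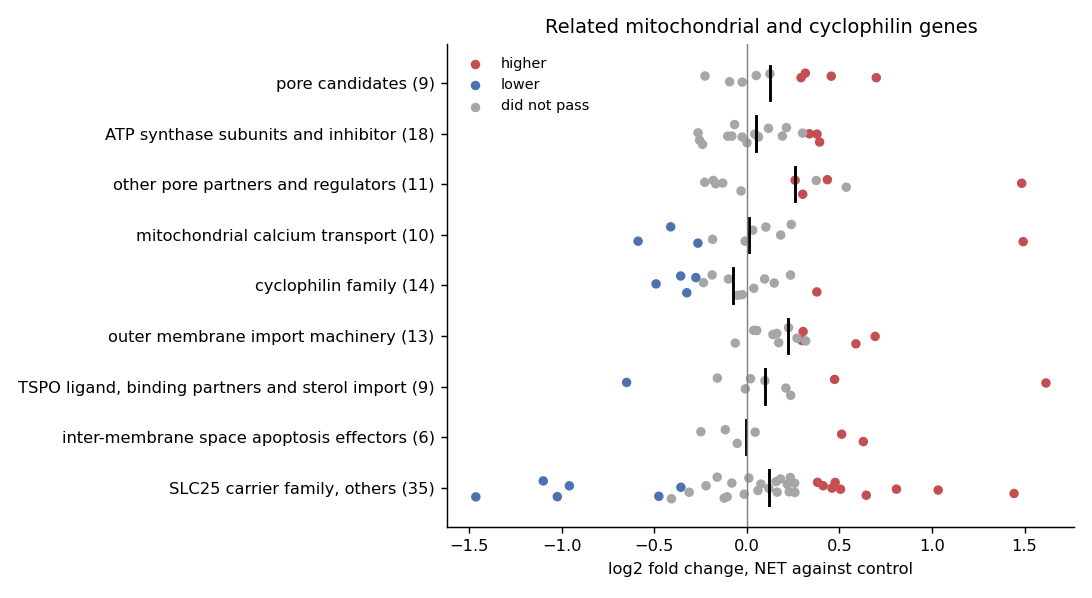
Log2 fold change, NET against control (x axis), of the 9 candidates and of the genes of 8 related lists (y axis, number of genes tested in brackets). Each point is a gene, red where higher, blue where lower and grey where the edgeR test was not passed, black bars are medians, and vertical scatter only spreads the points. Hk2, Mcu, Cyp11a1 and Slc25a33 lie farthest to the right, above every candidate.

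Genes with the pattern most like 4 of the candidates were picked by the Pearson correlation of log2 CPM over the 6 samples, as a description. The 7282 genes compared had a mean of at least 20 CPM over the 6 samples and no predicted or clone name (such as Gm or Rik). The points share the group difference and the libraries. Most like Ppif were Pacsin2, Tmem109 and Nob1 (r of 0.998, 0.997 and 0.997), and 476 genes had an r above 0.95. For Slc25a4 they were Akirin2, Rnf7 and Gcat (0.997, 0.996 and 0.992, with 93 genes above 0.95). For Vdac3, whose pattern did not follow the groups, they were Magoh, Rbm7 and Fech (0.996, 0.990 and 0.989, with 41 genes above 0.95). For Tspo they were Prkag1, Pcyox1 and Dnpep (0.986, 0.980 and 0.976), and 14 genes were above 0.95.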

How the data were processed

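Poly(A) RNA of 3 NET and 3 control samples was sequenced as strand-marked paired-end libraries. Per gene and sample, the deposited tables hold estimated counts, left unscaled between libraries, and FPKM, which the authors obtained by scaling for length and depth. Of the count values, 31.6% were whole to 2 decimals. The build in the submitters' processing notes was mm10, while aligner, counting tool and annotation are not given in the sources used here. Symbols and NCBI gene numbers are those of the tables. Rows blank in all samples (6459 of 22064 genes) were treated as missing. Both tables were used in full.

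Estimated counts were rounded, filtered with filterByExpr (12546 genes left), scaled by TMM and tested for the group difference alone with the two-sided quasi-likelihood F test of edgeR 4.0.16 under R 4.3.3. Benjamini-Hochberg adjustment ran over all genes tested, with a threshold of 0.05. The study used DESeq2, which was run here as an alternative (1.42.0), as was limma (3.58.1). Standard errors come from the F statistic and 95% intervals from its degrees of freedom. Within-sample log2 ratios of FPKM were compared by exact permutation tests. Replicates of a group differed by more than sampling noise (chi-square per degree of freedom of 15.8 to 27.4, except 3.05 between control samples 2 and 3), so each was kept as a sample.

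The 9 genes, the related lists and the cell type markers were chosen with earlier results of these data known. Named genes were all 9 candidates, up to 3 genes with the smallest adjusted p per list, called genes against a list's direction, the most abundant markers, and the 3 genes most like Ppif, Slc25a4, Tspo and Vdac3. Afg3l2, Nktr, Ppwd1, Letmd1, Tomm20, Dbi, Star, Smdt1, Slc8b1, Cd8b1, Cd68, Pf4, Cd79a and Cd79b were named beyond this rule, after their values were seen. So were Jchain, Bax and Bak1. Shared windows were counted by exact match of 100-base stretches between GENCODE M21 transcripts, and positions come from RefSeq on the same assembly. Alternatives were other scalings, filters and tools, limma on log2 FPKM with a pseudocount of 1 or 0.1, a block for the replicate number, and fits without single libraries or without both libraries numbered 1.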

Additional observations from a re-analysis of the deposited data

How the results depend on the processing

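Ppif and Ppid kept their direction and their call under all 17 alternatives, with log2 fold changes of 0.66 to 0.78 (adjusted p from 1.28e-07 to 0.00363) and 0.40 to 0.50 (9.06e-06 to 0.0122). Slc25a3 and Slc25a4 kept their direction but lost the call under 3 and 5 alternatives, each of which left out libraries. Both calls held without control sample 1 and without NET sample 3, and the cause of the losses was not tested. With single libraries left out, Slc25a3 ranged from 0.25 to 0.34 and Slc25a4 from 0.27 to 0.41, and the number of candidates called higher from 2 to 4. Without both libraries numbered 1, Slc25a4 was 0.28 (adjusted p = 0.0562) and Slc25a5 turned to -0.007. Vdac1 turned positive under upper quartile scaling (0.023) and ranged from -0.095 to 0.017 with single libraries left out, being 0.006 without NET sample 3, 0.012 without control sample 2 and 0.017 without control sample 3. The cause of these changes of sign was not tested. Vdac2, Vdac3 and Tspo kept their direction and stayed uncalled (0.10 to 0.19, -0.19 to -0.03 and -0.32 to -0.14). The counts of all genes called ranged from 2027 to 3484 higher and from 2104 to 3534 lower, the largest in both directions with the replicate block. Each of the 5 paralog ratios kept its direction in 8 alternatives, ranging from 0.232 to 0.308 for Slc25a4 to Slc25a5, 0.151 to 0.352 for Ppif to Ppid, -0.21 to -0.108 for Vdac1 to Vdac2, 0.042 to 0.1 for Vdac1 to Vdac3 and 0.15 to 0.31 for Vdac2 to Vdac3.

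Same-numbered samples of the groups correlated at 0.433, 0.138 and 0.045 in their deviations from the group means, and control sample 2 correlated better with NET sample 3 (0.192), so the numbers were not taken to pair the samples. With the replicate block no candidate changed its call, with Slc25a3 at 0.29 (adjusted p = 0.00529), Slc25a4 at 0.31 (0.00668) and Tspo at -0.23 (0.0573). An exact sign-flip test within the same numbers gave p = 0.25, the smallest it allows, for each of the 5 ratios.

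A missed threshold for Vdac1, Vdac2, Vdac3, Slc25a5 and Tspo does not show that they did not change, and their 95% intervals give the sizes these samples leave possible. Transcript levels do not give protein levels or pore opening, which were not measured in these files.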
